A study of Homo sapiens with 8 samples.

Results

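The 9 genes described here code for proteins that write, read or erase the methyl mark on cytosine in DNA. DNMT1, DNMT3A and DNMT3B are the DNA methyltransferases, UHRF1 and UHRF2 are homologous readers of newly replicated DNA, TET1, TET2 and TET3 are the dioxygenases that oxidise the mark, and MBD2 binds methylated DNA. They were chosen by symbol and are 9 of the 20531 genes listed for each library, and all 9 passed the filter, which asked for 10 units in any library and kept 14429 genes. RNA was sequenced from cultures of 2 established human breast cancer cell lines with amplified HER2 (ERBB2), SKBR-3 and BT474m1, a derivative of BT474. The 4 treatments of each line were the vehicle DMSO, 300 nM lapatinib, 300 nM JQ1 and the 2 drugs together, for 48 h per the labels. Lapatinib blocks the kinases EGFR and HER2, and JQ1 blocks the acetyl-lysine pocket of BET proteins. Each of the 8 groups was 1 library from 1 line, so that no spread between replicate cultures could be measured, and p-values are given for 1 fit alone, which takes the 2 lines together. A value is a read count on a scale in which the upper quartile of a library is 1000 units, a change is a difference of log2(value + 1), and a gene is called raised or lowered at 2-fold or more. The 95% intervals are exact Clopper-Pearson intervals from the read counts and cover counting error only.

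Between 21420113 and 34112379 reads fell on genes in a library, and 1 read was worth 0.471 to 0.766 units. ERBB2 lay between 94678 and 277872 in all 8 libraries. The epithelial genes EPCAM, KRT8, KRT18 and KRT19 lay between 3299.7 and 211202, whereas CDH1, which codes for E-cadherin, did not exceed 15.1 in SKBR-3. The estrogen receptor gene ESR1 was at most 16.8 in SKBR-3 and 189.9 to 1827 in BT474m1. The summed value of 3 leukocyte markers was at most 13.6, with CD3E at 0 in some libraries, and that of 3 basal markers at most 38.7. Of 4 fibroblast markers COL1A1 alone exceeded 10, at up to 1253 in BT474m1, and of 3 endothelial markers VWF and CDH5 did, with PECAM1 at most 0.583. Against DMSO in both lines, JQ1 lowered VWF and CDH5, both drugs lowered COL1A1 and CDH5, and lapatinib raised ESR1. Of the 5 luminal markers EPCAM, CDH1, KRT8, KRT18 and KRT19, JQ1 raised the 3 keratin genes in SKBR-3 and both drugs raised KRT8, KRT18 and CDH1 there, the last on 22 reads against 6 with DMSO. No treatment changed one of the 5 by 2-fold against DMSO in BT474m1. In SKBR-3 KRT8 was 59145 (DMSO), 56640.4 (lapatinib), 211202 (JQ1) and 122390.0 (both drugs), KRT18 was 27539, 27969.8, 97486 and 58479 in the same order and KRT19 was 70271, 59041, 194265 and 110404. The basal gene TP63 had 81, 5, 11 and 3 reads in BT474m1 with DMSO, lapatinib, JQ1 and both, so that each treatment lowered it. In SKBR-3 it had 7, 3, 7 and 1 reads, and for both drugs against DMSO the interval of -8.36 to 0.10 includes 0. The basal gene KRT5 had 2, 7, 22 and 5 reads in SKBR-3 with DMSO, lapatinib, JQ1 and both. The progesterone receptor gene PGR in BT474m1 was 858 (DMSO), 12466 (lapatinib), 251 (JQ1) and 290.3 (both drugs), and it did not exceed 3.06 in SKBR-3. The part of these marker shifts in the changes of the 9 genes was not tested.

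Methylation of CpG sites is copied each time DNA is replicated. UHRF1 recognises the hemimethylated sites behind the fork and recruits DNMT1, which methylates the new strand, while DNMT3A and DNMT3B can methylate sites that carried no mark. The TET enzymes oxidise 5-methylcytosine, after which it is lost by dilution at replication or cut out by the glycosylase TDG. MBD2 carries the NuRD complex, which removes acetyl groups and remodels nucleosomes, to methylated promoters. In cycling cells the genes for DNMT1 and UHRF1 are known to be most active around S phase, and E2F factors are among the regulators of such genes. In the results that follow, a lower value in bulk RNA can come from fewer cells that express a gene or from less RNA per cell, and these cannot be told apart.

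The windows at the transcription starts of UHRF1 and DNMT1 are shown because both genes were lowered by lapatinib in both lines, beside the window of UHRF2, the homologue that was not. The RefSeq table of GRCh38.p14 held 20 windows of 300 bases for the 9 genes, and each was searched on both strands for 4 strings of 8 letters of the E2F type, TTTCCCGC, TTTCGCGC, TTTGGCGC and TTTGCCGC. A match was found for 2 of the 9 genes, in 2 of the 3 windows of UHRF1 and in the window of DNMT1. At least 1 of the 4 strings was present for 6.47% of the 11389 genes that passed the filter and had a window, and for 10 of 18 replication genes. Each sequence below has 250 bases before the start and the first 10 after it, 5′ to 3′ on the strand of the gene, and the capitals mark the match. The first UHRF1 window is chr19:4909251-4909510 on the plus strand, the second is chr19:4909894-4910153 on the plus strand, that of DNMT1 is chr19:10194944-10195203 on the minus strand and that of UHRF2 is chr9:6412949-6413208 on the plus strand.
UHRF1, first start: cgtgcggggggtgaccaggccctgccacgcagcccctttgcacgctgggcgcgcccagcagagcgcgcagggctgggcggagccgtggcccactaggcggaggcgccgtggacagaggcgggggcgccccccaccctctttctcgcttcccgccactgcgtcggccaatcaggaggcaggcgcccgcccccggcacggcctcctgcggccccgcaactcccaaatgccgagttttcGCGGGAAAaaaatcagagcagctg
UHRF1, second start: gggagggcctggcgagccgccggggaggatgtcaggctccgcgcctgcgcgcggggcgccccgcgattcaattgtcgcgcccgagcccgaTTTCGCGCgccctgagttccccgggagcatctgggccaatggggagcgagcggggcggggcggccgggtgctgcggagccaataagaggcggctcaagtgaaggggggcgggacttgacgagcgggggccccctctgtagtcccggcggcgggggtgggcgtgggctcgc
DNMT1: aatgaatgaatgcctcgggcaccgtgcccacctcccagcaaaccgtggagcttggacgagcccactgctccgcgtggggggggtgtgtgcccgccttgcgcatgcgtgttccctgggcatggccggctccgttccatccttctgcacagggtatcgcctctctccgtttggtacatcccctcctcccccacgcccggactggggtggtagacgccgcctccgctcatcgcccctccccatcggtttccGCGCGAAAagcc
UHRF2: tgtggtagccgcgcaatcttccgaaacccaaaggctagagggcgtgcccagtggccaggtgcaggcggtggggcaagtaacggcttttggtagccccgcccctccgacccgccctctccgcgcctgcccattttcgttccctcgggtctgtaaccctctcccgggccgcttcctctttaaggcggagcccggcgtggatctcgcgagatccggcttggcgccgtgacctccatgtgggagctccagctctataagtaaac
The match begins 14 bases before the first UHRF1 start and 160 bases before the second. In DNMT1 it begins 2 bases before the start and runs across it. These letters are not in the UHRF2 window. The starts of UHRF1 and DNMT1 lie inside the span that GENCODE gives each gene, and which start the cells used was not measured. A match of letters is a description and was not tested as a binding site.

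Compared per kilobase of the canonical transcript, DNMT1 was the most abundant of the 9 genes with DMSO in both lines, at 489 units per kilobase in SKBR-3 and 989.9 in BT474m1. In SKBR-3 the order continued with UHRF1 at 281, MBD2 at 187, TET2 at 128, TET3 at 122 and UHRF2 at 121. DNMT3B at 76.9, DNMT3A at 36.2 and TET1 at 11.0 were the lowest there. BT474m1 had MBD2 at 279 and UHRF1 at 266 next, then TET3 at 131, TET2 at 126, DNMT3B at 117, DNMT3A at 81.5, UHRF2 at 60.9 and TET1 at 16.8. The transcript that each line uses is not known from these values, so that the order of genes with values close together is uncertain. Without drug, BT474m1 exceeded SKBR-3 by 2-fold or more in 2 of the 9 genes, and in 26.8% of all genes tested: DNMT1 with a log2 difference of 1.02 (95% interval 0.96 to 1.07) and DNMT3A with 1.17 (95% interval 1.02 to 1.32). UHRF2 differed in the other direction, with -0.98 (95% interval -1.16 to -0.81), just inside 2-fold, and 15.6% of all genes tested were at least 2-fold lower. UHRF1, at -0.08 (95% interval -0.18 to 0.01), and TET2, at -0.02 (95% interval -0.11 to 0.07), were close between the lines. The call for DNMT1 was lost and one for UHRF2 gained when libraries were scaled by the median of ratios, with log2 differences of 0.86 and -1.13, and likewise with scaling to equal totals, with 0.99 and -1.01.

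**Figure D1:**
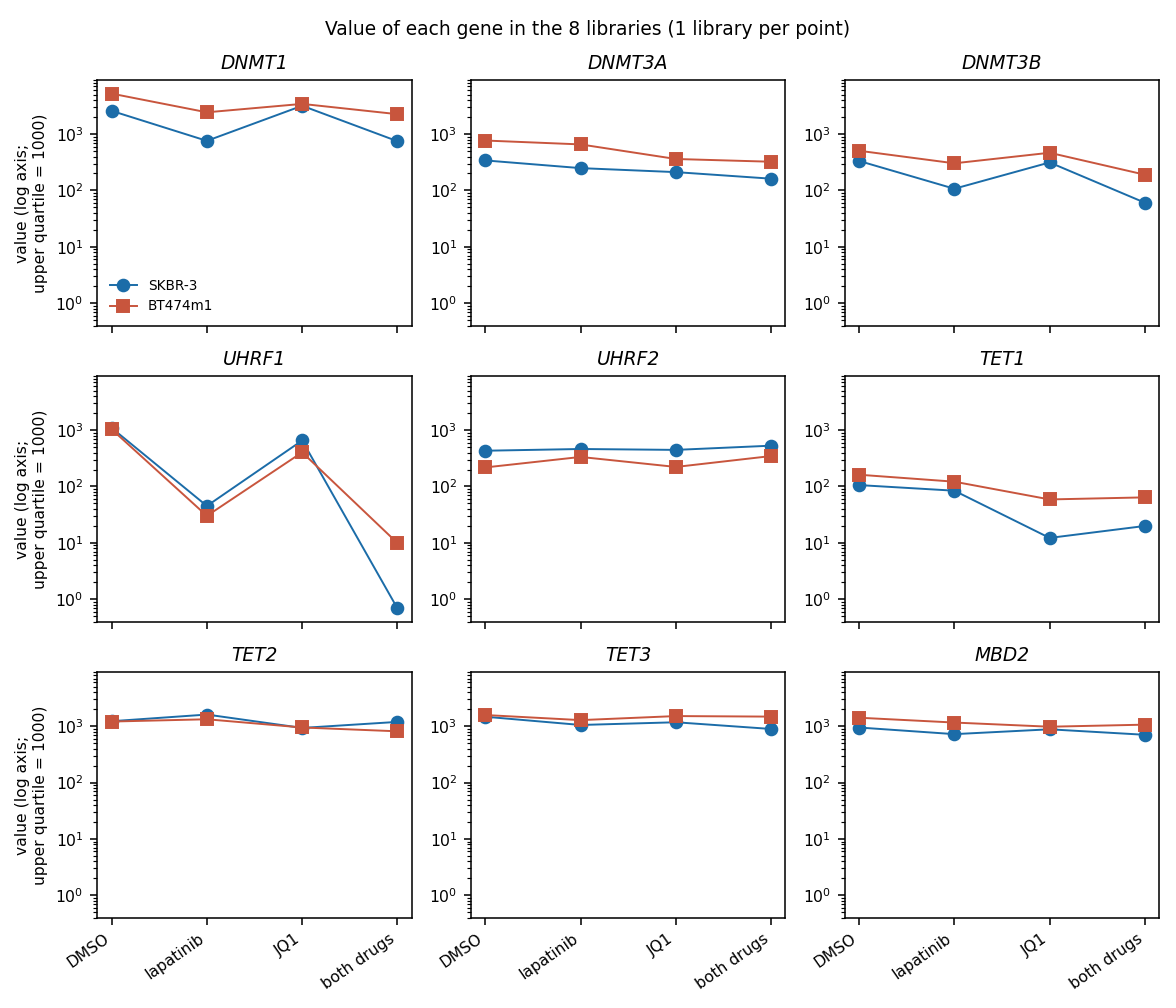
Value of each of the 9 genes (vertical log axis, units in which the upper quartile of a library is 1000) with DMSO, lapatinib, JQ1 and both drugs (horizontal axis) in SKBR-3 (circles) and BT474m1 (squares), 1 library per point and no error bars. UHRF1 drops from above 1000 with DMSO to below 50 with lapatinib in both lines and further with both drugs, DNMT1 is lower in the lapatinib libraries than with DMSO, TET1 is lowest in the 2 kinds of JQ1 library, and TET2, TET3, MBD2 and UHRF2 stay within a narrow range.

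UHRF1 (chr19:4903080-4962154, plus strand, GENCODE annotation of GRCh38) had the largest changes of the 9 genes with lapatinib. Its value in SKBR-3 was 1095 (DMSO), 45.2 (lapatinib), 655 (JQ1) and 0.688 (both drugs). The corresponding values in BT474m1 were 1036, 30.1, 404 and 9.91. The order of treatments was thus the same in both lines, with DMSO highest, JQ1 next, lapatinib far below and both drugs lowest. The log2 change with lapatinib was -4.57 (95% interval -5.00 to -4.22) in SKBR-3, the 4th lowest of the 14429 genes, and -5.06 (95% interval -5.54 to -4.70) in BT474m1, the 44th lowest. JQ1 alone gave -0.74 (95% interval -0.86 to -0.63) in SKBR-3, short of 2-fold, and -1.36 (95% interval -1.48 to -1.24) in BT474m1. With both drugs UHRF1 was left with 1 read in SKBR-3 against 1530 with DMSO, the lowest log2 change of all genes tested there at -9.34. A count of 1 read fixes that change poorly, and its interval, taken without the pseudocount, ran from -15.94 to -8.16. In BT474m1 17 reads remained with both drugs, a log2 change of -6.57 (95% interval -7.49 to -6.02) and the 7th lowest. Against lapatinib alone, adding JQ1 lowered UHRF1 again in both lines, with log2 changes of -4.77 in SKBR-3 (-11.36 to -3.50) and -1.51 in BT474m1 (-2.49 to -0.78). With a pseudocount of 10 in place of 1 the change in SKBR-3 was -2.37. The changes of UHRF1 with both drugs against DMSO were also smaller in both lines with that pseudocount, and lay outside the intervals given here.

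UHRF2 (chr9:6413151-6507054, plus strand), which has the same domains as UHRF1 but does not replace it in maintenance, stayed within 2-fold of its DMSO value in every library. It stood at 431 (DMSO), 462 (lapatinib), 446 (JQ1) and 529.7 (both drugs) in SKBR-3. In BT474m1 it stood at 218, 334, 222 and 347 with the same treatments, so that both lapatinib libraries lay above the 2 without it. The log2 changes with lapatinib were 0.10 (-0.06 to 0.27) in SKBR-3 and 0.62 (0.44 to 0.80) in BT474m1, with both drugs 0.30 (0.14 to 0.45) and 0.67 (0.49 to 0.85), and none reached 2-fold. With JQ1 the changes of 0.05 (-0.11 to 0.21) and 0.03 (-0.16 to 0.22) were not detectable at this depth, and the first turned to -0.10 under scaling to equal totals. The ratio of UHRF1 to UHRF2 reads within a library does not depend on the scaling. It was 2.54 (DMSO), 0.0977 (lapatinib), 1.47 (JQ1) and 0.00130 (both drugs) in SKBR-3. In BT474m1 the ratio was 4.76, 0.0901, 1.82 and 0.0286. UHRF1 therefore had more reads than its homologue with DMSO and JQ1 and fewer with lapatinib and both drugs, in both lines. The log2 change of the ratio with lapatinib was -4.70 (95% interval -5.13 to -4.29) in SKBR-3 and -5.72 (95% interval -6.19 to -5.27) in BT474m1.

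DNMT1 (chr19:10133342-10231286, minus strand), the maintenance methyltransferase, was lowered by lapatinib in both lines but by much less than its recruiter. Its value was 2581 (DMSO), 758 (lapatinib), 3177 (JQ1) and 746 (both drugs) in SKBR-3. The values in BT474m1 were 5221, 2431, 3429 and 2253. In SKBR-3 the 2 lapatinib libraries formed a low pair and the other 2 a high one, whereas in BT474m1 the JQ1 library lay between. The log2 change with lapatinib was -1.77 (95% interval -1.87 to -1.67) in SKBR-3 and -1.10 (95% interval -1.15 to -1.05) in BT474m1. JQ1 gave 0.30 (95% interval 0.24 to 0.36) and -0.61 (95% interval -0.65 to -0.56), opposite in sign and neither of them 2-fold. With both drugs the changes were -1.79 (-1.89 to -1.69) and -1.21 (-1.27 to -1.16). Adding JQ1 to lapatinib moved DNMT1 by -0.02 (-0.15 to 0.10) and -0.11 (-0.17 to -0.05), and the first value turned to 0.14 under scaling by the median of ratios.

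Among the de novo methyltransferases, DNMT3B was lower in the libraries with lapatinib and DNMT3A in those with JQ1. DNMT3B (chr20:32762385-32809359, plus strand) had values of 334 (DMSO), 107 (lapatinib), 314 (JQ1) and 60.5 (both drugs) in SKBR-3. Its values in BT474m1 were 506, 303, 466 and 190.1. The 2 lapatinib libraries were the lowest in each line. Lapatinib changed it by -1.63 (95% interval -1.92 to -1.36) in SKBR-3 and by -0.74 (95% interval -0.90 to -0.59) in BT474m1, where it missed 2-fold, and both drugs by -2.44 (-2.81 to -2.13) and -1.41 (-1.60 to -1.23). With JQ1 alone it was not detectably changed, at -0.09 (-0.27 to 0.10) and -0.12 (-0.24 to 0.01). When JQ1 was added to lapatinib, DNMT3B stood lower than with lapatinib, with log2 changes of -0.81 (-1.23 to -0.43) and -0.67 (-0.88 to -0.47), short of 2-fold in both lines. DNMT3A (chr2:25227855-25342590, minus strand) had values of 341 (DMSO), 249 (lapatinib), 211 (JQ1) and 162 (both drugs) in SKBR-3 and of 768, 655, 361 and 323 in BT474m1. Here the 2 JQ1 libraries were the lowest. The log2 changes of DNMT3A with JQ1 were -0.69 (-0.90 to -0.48) and -1.09 (-1.21 to -0.96), the second past 2-fold, and with lapatinib -0.45 (-0.66 to -0.25) and -0.23 (-0.34 to -0.12). With both drugs it was lowered in both lines, with log2 changes of -1.07 (-1.31 to -0.85) and -1.25 (-1.39 to -1.11), and the SKBR-3 call was lost at -0.93 when libraries were scaled by the median of ratios. The ratio of DNMT3B to DNMT3A reads in SKBR-3 was 0.979 (DMSO), 0.431 (lapatinib), 1.48 (JQ1) and 0.374 (both drugs). In BT474m1 it was 0.659, 0.462, 1.29 and 0.588. The ratio was highest with JQ1 and below its DMSO level with lapatinib in both lines, with log2 changes of 0.60 (95% interval 0.32 to 0.88) and 0.97 (95% interval 0.79 to 1.15) for JQ1. For lapatinib the changes of the ratio were -1.18 (95% interval -1.54 to -0.84) in SKBR-3 and -0.51 (95% interval -0.70 to -0.32) in BT474m1.

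**Figure D2:**
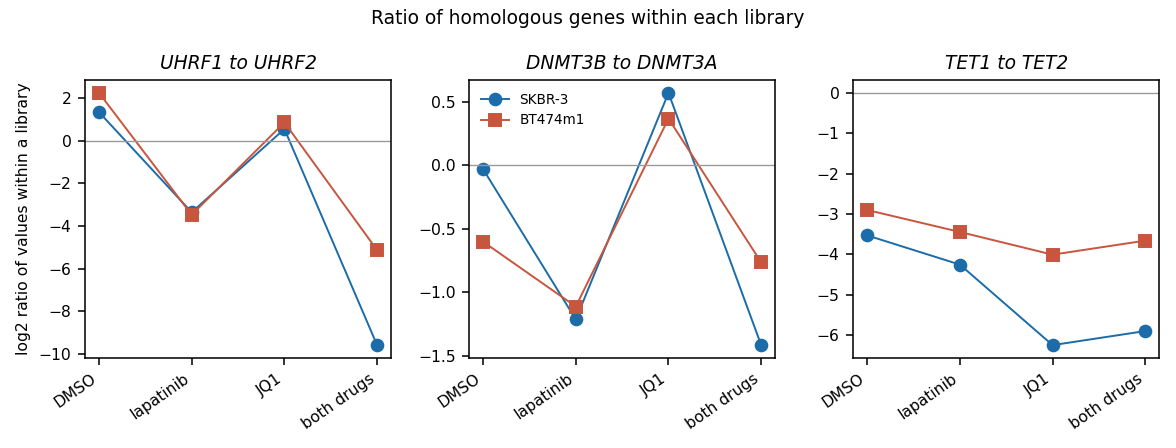
Log2 ratio of the reads of 2 homologous genes within each library (vertical axis) by treatment (horizontal axis) in SKBR-3 (circles) and BT474m1 (squares), 1 library per point, with the grey line at equal reads and a scale of its own for each panel. UHRF1 to UHRF2 falls below equality in the lapatinib libraries of both lines, DNMT3B to DNMT3A is highest with JQ1, and TET1 to TET2 is lowest with JQ1. For TET1 to TET2 the difference between JQ1 and both drugs is within counting error in both lines.

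Of the TET genes, TET1 was lowered by JQ1 in both lines. TET1 (chr10:68560337-68694487, plus strand) had values of 106 (DMSO), 84.2 (lapatinib), 12.2 (JQ1) and 19.9 (both drugs) in SKBR-3, which were 148, 110, 19 and 29 reads. In BT474m1 the values were 162, 122, 58.9 and 64.1. The libraries with JQ1 were the 2 lowest in each line. JQ1 changed TET1 by -3.01 (95% interval -3.89 to -2.42) in SKBR-3 and -1.44 (95% interval -1.77 to -1.15) in BT474m1, both drugs by -2.35 (-3.04 to -1.83) and -1.32 (-1.66 to -1.02), and lapatinib by -0.33 (-0.70 to 0.03) and -0.41 (-0.67 to -0.16), of which the SKBR-3 interval includes 0. The level with both drugs was not distinguishable from that with JQ1, with changes of 0.66 (-0.18 to 1.62) and 0.12 (-0.26 to 0.51). TET2 (chr4:105145875-105279816, plus strand) and TET3 (chr2:73984910-74108176, plus strand) had the more abundant transcripts of the family per kilobase with DMSO. TET2 stood at 1224 (DMSO), 1606 (lapatinib), 930.4 (JQ1) and 1191 (both drugs) in SKBR-3 and at 1207, 1325, 948 and 810.5 in BT474m1, with no 2-fold change in any comparison. Lapatinib gave TET2 0.39 (0.30 to 0.49) and 0.13 (0.05 to 0.22), and JQ1 gave -0.40 (-0.50 to -0.29) and -0.35 (-0.43 to -0.26). TET3 stood at 1469.6 (DMSO), 1049.8 (lapatinib), 1173 (JQ1) and 891 (both drugs) in SKBR-3 and at 1576, 1280.1, 1510.1 and 1477 in BT474m1. Its log2 changes with lapatinib were -0.48 (-0.59 to -0.39) and -0.30 (-0.38 to -0.22), and with both drugs -0.72 (-0.82 to -0.62) and -0.09 (-0.17 to -0.02). An exon of TET3 overlaps an unnamed noncoding gene on the same strand by 390 bases, and that gene is not in the tables. The ratio of TET1 to TET2 reads was 0.0865 (DMSO), 0.0524 (lapatinib), 0.0132 (JQ1) and 0.0168 (both drugs) in SKBR-3. In BT474m1 it was 0.134, 0.0918, 0.0622 and 0.0791, and its log2 change with JQ1 was -2.72 (95% interval -3.50 to -2.01) in SKBR-3 and -1.11 (95% interval -1.43 to -0.79) in BT474m1.

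MBD2 (chr18:54151606-54224669, minus strand) had values of 946 (DMSO), 722 (lapatinib), 879.5 (JQ1) and 703 (both drugs) in SKBR-3 and of 1412, 1159, 978 and 1064 in BT474m1, and DMSO was the highest library of both lines. No change reached 2-fold, with -0.39 (-0.51 to -0.27) and -0.28 (-0.37 to -0.20) for lapatinib and -0.11 (-0.22 to 0.00) and -0.53 (-0.61 to -0.45) for JQ1. Of 11 genes for NuRD subunits that work with MBD2, lapatinib raised or lowered none in either line. Of all genes tested it raised 11.1% in SKBR-3 and 14.0% in BT474m1, and it lowered 9.44% and 8.06%. The median log2 changes of the 11 were -0.17 and -0.21. JQ1 lowered 1 in SKBR-3 and 2 in BT474m1, near the 11.8% of all genes tested that it lowered in each line. Of these, MTA3 was lowered in both lines, with log2 changes of -1.13 in SKBR-3 and -1.09 in BT474m1. Both drugs lowered none of the 11 in SKBR-3 and 2 in BT474m1, where they lowered 20.8% and 15.3% of all genes. CHD4, the remodelling ATPase of the complex, had log2 changes between -0.55 and 0.19 over the 3 treatments and both lines.

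Counted over the 9 genes, lapatinib lowered 3 in SKBR-3 (DNMT1, DNMT3B and UHRF1), where 9.44% of all genes tested were lowered, and 2 in BT474m1 (DNMT1 and UHRF1), where 8.06% were. JQ1 lowered 1 in SKBR-3 (TET1) against 11.8% of all genes, and 3 in BT474m1 (DNMT3A, UHRF1 and TET1) against 11.8%. Both drugs lowered the same 5 genes in both lines, DNMT1, DNMT3A, DNMT3B, UHRF1 and TET1, or 4 under the median of ratios, which takes DNMT3A in SKBR-3 to -0.93. The background for both drugs was 20.8% in SKBR-3 and 15.3% in BT474m1, and 8.93% of all genes were lowered in both lines. Both lines shared 2 lowered genes of the 9 with lapatinib (DNMT1 and UHRF1, background 4.15%) and 1 with JQ1 (TET1, background 5.31%). None of the 9 was raised 2-fold or more by any treatment, where in SKBR-3 11.1% of all genes tested were raised with lapatinib, 3.75% with JQ1 alone and 10.8% with the 2 together. In BT474m1 14.0%, 4.81% and 14.2% were raised. Against lapatinib alone, both drugs lowered 2 of the 9 in SKBR-3 (UHRF1 and TET1, background 16.2%) and 2 in BT474m1 (DNMT3A and UHRF1, background 12.5%). That call of DNMT3A, at -1.02, was lost with a pseudocount of 10 (-0.9986) and with scaling by the median of ratios (-0.99), which leaves UHRF1 alone of the 9. Against JQ1 alone they lowered 3 in SKBR-3 (DNMT1, DNMT3B and UHRF1, background 12.3%) and 2 in BT474m1 (DNMT3B and UHRF1, background 7.27%). UHRF1 was shared by both lines in the first of these comparisons (background 6.31%), and DNMT3B and UHRF1 in the second (background 3.95%). None of the 9 was raised in either, where 3.22% of all genes in SKBR-3 and 5.2% in BT474m1 were raised against lapatinib, and 9.79% and 12.4% against JQ1. The median log2 change of the 9 with lapatinib was -0.45 in SKBR-3 and -0.30 in BT474m1, beside 0.05 and 0.07 over all genes. With JQ1 it was -0.33 and -0.53, beside -0.08 and -0.06. With both drugs it was -1.07 and -1.21, beside -0.08 and 0.00. The mean of the 9 in SKBR-3 was -1.01 with lapatinib, -0.56 with JQ1 and -1.99 with both, and in BT474m1 -0.82, -0.61 and -1.35. The 3 comparisons with DMSO of a line share 1 control library, so that they are not independent of each other. Within a line and gene, 15 of the 54 pairs of neighbours in the order of the 4 treatments had an interval that includes 0.

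To set each change against a spread, the 2 lines were joined in a limma fit of line plus treatment on log2(value + 1) over all 14429 genes, in which the line is the block. The fit, added after the values were seen, leaves 3 residual degrees of freedom, and its spread holds both the noise of single libraries and any difference in response between the lines. At an adjusted p (Benjamini-Hochberg) under 0.05, lapatinib lowered 1 of the 9 genes, UHRF1, with a log2 change of -4.81 (SE 0.80, adjusted p = 0.0246), where 2.92% of all genes were lowered. DNMT1 at -1.43 (SE 0.36, adjusted p = 0.0742) and DNMT3B at -1.18 (SE 0.35, adjusted p = 0.104) did not pass this limma test. With JQ1 none of the 9 passed limma's threshold, beside 0.0416% of all genes lowered. An unadjusted p under 0.05 was held by 2 of the 9, beside 2201 of the 14429 genes in either direction. Those 2 were TET1 at -2.23 (SE 0.51, adjusted p = 0.133) and DNMT3A at -0.89 (SE 0.23, adjusted p = 0.168) in the limma fit. Both drugs lowered 5 of the 9 against DMSO, where 10.9% of all genes were lowered, and these were the 5 that changed 2-fold in each line. The limma fit gave -7.96 (SE 0.80, adjusted p = 0.00298) for UHRF1, -1.93 (SE 0.35, adjusted p = 0.0141) for DNMT3B and -1.16 (SE 0.23, adjusted p = 0.0199) for DNMT3A. It gave -1.50 (SE 0.36, adjusted p = 0.0329) for DNMT1 and -1.84 (SE 0.51, adjusted p = 0.0486) for TET1. Against lapatinib alone both drugs lowered none of the 9 by limma, beside 0.215% of all genes, with UHRF1 at -3.14 (SE 0.80, adjusted p = 0.127). In that comparison 4 of the 9 had an unadjusted limma p under 0.05, beside 2501 of the 14429 genes in either direction. Against JQ1 alone both drugs lowered 2, beside 2.79% of all genes, with limma values of -1.82 (SE 0.35, adjusted p = 0.0371) for DNMT3B and -6.91 (SE 0.80, adjusted p = 0.00911) for UHRF1. No gene of the 9 was raised in any of the 5 comparisons by limma, at an unadjusted p under 0.05 either, while 1.73% of all genes were raised with lapatinib, 0.0139% with JQ1, 7.52% with both drugs, 0.0347% with both against lapatinib and 1.47% with both against JQ1. The call of UHRF1 with lapatinib was lost when any 1 of the 4 DMSO and lapatinib libraries was left out, and DNMT1 was also called without either JQ1 library. With both drugs against DMSO UHRF1 alone was lowered without either DMSO library or without the SKBR-3 library with both drugs, DNMT1, DNMT3B and UHRF1 without the BT474m1 library with both drugs, and all but TET1 of the 5 without either lapatinib library. Against JQ1 the call of DNMT3B was lost without either DMSO library, either JQ1 library or the SKBR-3 library with both drugs, and that of UHRF1 without the SKBR-3 JQ1 library. Each of these fits has 2 residual degrees of freedom and a treatment with 1 library. In every loss named here fewer of all 14429 genes passed than with all libraries, so that the lost calls are not particular to these genes.

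**Figure D3:**
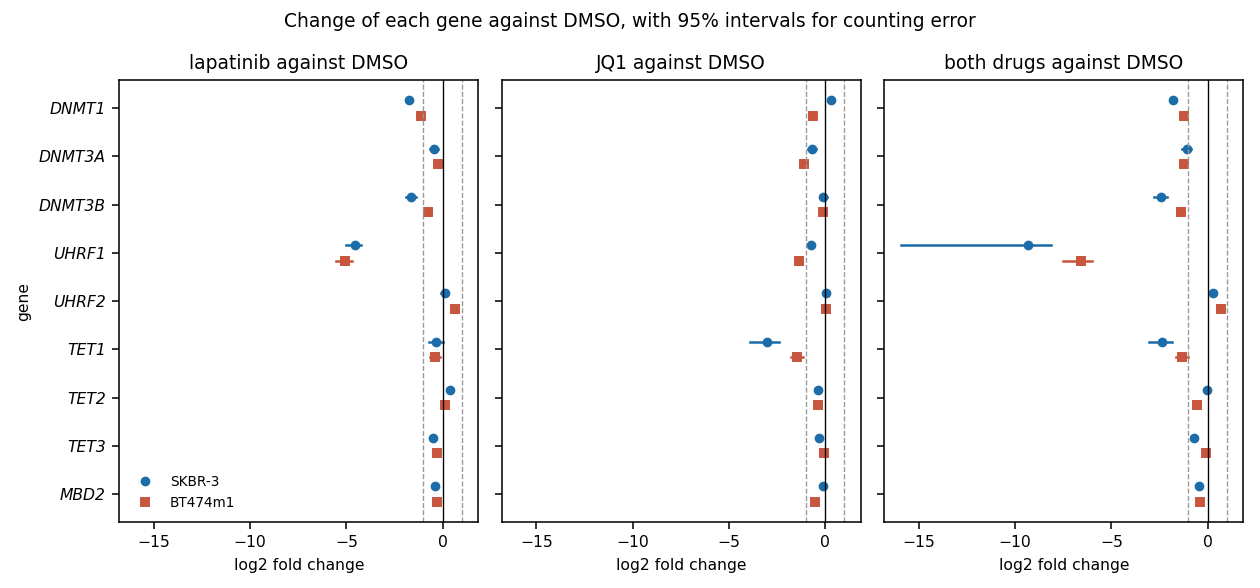
Log2 fold change of each of the 9 genes (horizontal axis) with lapatinib, JQ1 and both drugs against DMSO in SKBR-3 (circles) and BT474m1 (squares), 1 library per group, with lines for the 95% interval from counting error and dashes at 2-fold. UHRF1 lies far to the left with lapatinib and both drugs, TET1 with JQ1, and DNMT1 on opposite sides of 0 with JQ1 in the 2 lines.

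The genes whose products work with UHRF1 and DNMT1 at newly made DNA were counted next. Of 9 such genes, lapatinib lowered 6 in both lines, beside 9.44% of all genes in SKBR-3 and 8.06% in BT474m1, with median log2 changes of -2.13 and -2.47. HELLS, a nucleosome remodeller, had log2 changes of -2.88 in SKBR-3 and -3.18 in BT474m1, and CDCA7, which activates HELLS, of -3.72 in SKBR-3 and -2.47 in BT474m1. KIAA0101, the older symbol of PCLAF, whose product binds PCNA and DNMT1, had -3.56 in SKBR-3 and -4.92 in BT474m1. The gene of the sliding clamp PCNA had -2.13 in SKBR-3 and -2.66 in BT474m1, that of the chromatin assembly subunit CHAF1A -2.78 in SKBR-3 and -2.93 in BT474m1 and that of the histone methyltransferase SUV39H1 -1.61 in SKBR-3 and -2.09 in BT474m1. USP7, the deubiquitinase that binds UHRF1, was at 0.01 in SKBR-3 and -0.37 in BT474m1, and EHMT2 and KDM1B also stayed within 2-fold. JQ1 lowered 1 of the 9 in SKBR-3 and 3 in BT474m1, of which SUV39H1 was lowered in both, with log2 changes of -1.10 in SKBR-3 and -1.32 in BT474m1. With 11.8% of all genes lowered by JQ1 in each line, 1 of 9 is near the background. The 2 drugs together lowered 6 in SKBR-3 and 5 in BT474m1, where PCNA, at -0.98, was just short of 2-fold, beside 20.8% and 15.3% of all genes. With both drugs the log2 change of KIAA0101 was -6.80 in SKBR-3 and -5.02 in BT474m1, that of CHAF1A -4.51 in SKBR-3 and -3.44 in BT474m1 and that of HELLS -2.82 in SKBR-3 and -2.61 in BT474m1. CDCA7 was left with 3 reads in SKBR-3 with both drugs, a log2 change of -6.06 (95% interval -8.91 to -5.07), and changed by -2.81 in BT474m1.

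Genes of DNA replication were counted in the same way. Of 21 listed, lapatinib lowered 20 in SKBR-3 and all 21 in BT474m1, beside 9.44% and 8.06% of all genes, with median log2 changes of -2.59 and -2.92. RRM2, a subunit of ribonucleotide reductase, had -4.22 in SKBR-3 and -7.09 in BT474m1, TYMS, thymidylate synthase, -4.16 in SKBR-3 and -4.82 in BT474m1, and the helicase subunit MCM2 -3.31 in SKBR-3 and -2.92 in BT474m1. Other genes of the list lowered by lapatinib in both lines were MCM3, MCM4, MCM5, MCM6, MCM7, RRM1, CDC6, CDT1, ORC1L, GINS2, POLA1, FEN1, LIG1, RFC4, CDC45 and TK1, with log2 changes from -4.39 to -1.18 in SKBR-3. In BT474m1 these genes lay between -5.86 and -1.30. The exception in SKBR-3 was CHAF1B at -0.25. JQ1 lowered none of the 21 in SKBR-3 (median -0.17) and 3 in BT474m1 (MCM2 and MCM5 among them, median -0.77), beside 11.8% of all genes in each line. With both drugs 20 and 21 were lowered, beside 20.8% and 15.3%, with medians of -3.34 and -2.76. The change of UHRF1 with lapatinib exceeded the replication median in both lines and that of DNMT1 fell short of it. When JQ1 was added to lapatinib, 8 of the 21 were lowered in SKBR-3 (median -0.77) and 1 was lowered and 1 raised in BT474m1 (median 0.06), where 16.2% of all genes were lowered in SKBR-3 and 12.5% in BT474m1. The part of this shift in the changes of the 9 genes was not tested.

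**Figure D4:**
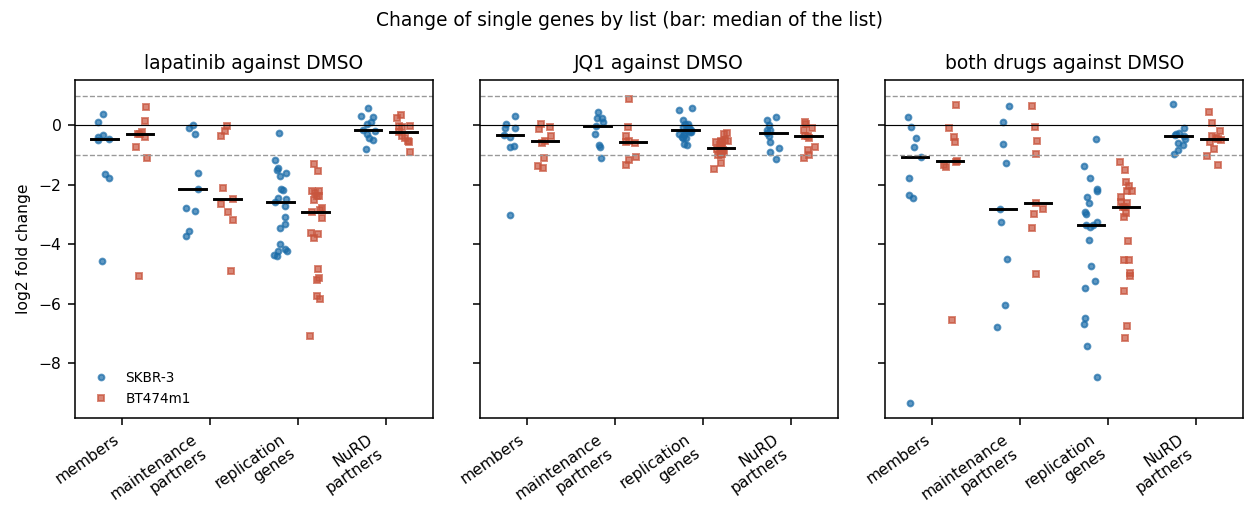
Log2 fold change of single genes (vertical axis) with lapatinib, JQ1 and both drugs against DMSO for the 9 genes (members), 9 maintenance partners, 21 replication genes and 11 NuRD partners, in SKBR-3 (circles) and BT474m1 (squares), 1 library per group, with a black bar at the median of each list and dashes at 2-fold. With lapatinib and both drugs the partners and replication genes lie mostly below the lower dashes, the NuRD partners lie mostly within them, and the 9 genes spread over both ranges.

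Counting also other writers, readers, erasers, TET cofactors and the supply of the methyl donor, the list of other pathway genes had 36, of which 35 passed the filter, the 9 partners above included. With lapatinib, 5 of them were raised and 7 lowered in SKBR-3, beside 2 and 6 in BT474m1, and 6 of those lowered in each line were the partners named above. With JQ1, 1 was raised and 2 were lowered in SKBR-3, and with both drugs 6 and 8. The BT474m1 counts were 1 raised and 5 lowered with JQ1, then 3 and 6 with both drugs. The shares of all genes tested that were raised by lapatinib were 11.1% and 14.0% in the 2 lines, those lowered were 9.44% and 8.06%, and the shares for JQ1 and both drugs are those given with the counts of the 9 genes. Among the readers, ZBTB38, which binds methylated DNA through zinc fingers, was raised by lapatinib in both lines, with log2 changes of 1.08 in SKBR-3 and 1.01 in BT474m1. MBD3 stood at -0.52 in SKBR-3 and -0.82 in BT474m1 and MBD4, a glycosylase, at -0.31 in SKBR-3 and -0.12 in BT474m1. TDG, the glycosylase that acts after the TET enzymes, was lowered by lapatinib in SKBR-3, from 1603 to 801 and just past the 2-fold limit, and stood at -0.69 in BT474m1. GADD45A, a stress gene with a proposed role in demethylation, was raised by both drugs in both lines, with log2 changes of 2.17 in SKBR-3 and 1.10 in BT474m1. Among the cofactors, CXXC4, which binds TET2 and lowers its protein, was lowered by JQ1 in both lines on very few reads, from 11 to 5 reads in SKBR-3, a log2 change of -1.07 (95% interval -3.17 to 0.35), and from 10 to 1 in BT474m1, a log2 change of -1.95 (95% interval -8.73 to -0.47). IDH1, which makes the 2-oxoglutarate that the TET enzymes use, stood with lapatinib at 1.20 in SKBR-3 and -0.68 in BT474m1, so that the lines differed in direction, and IDH2 at 0.17 in SKBR-3 and -0.86 in BT474m1. In the supply of S-adenosylmethionine, MAT2A, which makes the donor, stood with the 2 drugs together at -0.28 in SKBR-3 and 0.92 in BT474m1, and AHCY, which clears its product, at -0.63 in SKBR-3 and -0.37 in BT474m1.

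Genes of the germline whose promoters are often kept silent by methylation were listed to see whether their RNA appeared. Of 14 such genes, 2 passed the filter, 4 had no read in any of the 8 libraries, and none of those that passed was raised 2-fold by any treatment. TDRD1, of the piRNA pathway, stood at 1822, 2283, 2127 and 1866 in SKBR-3 with DMSO, lapatinib, JQ1 and both drugs, and did not exceed 1.41 in BT474m1. MAGEA1 lay between 12.4 and 26.4 in SKBR-3. In BT474m1, PIWIL2 went from 0 reads with DMSO to 6 with lapatinib and SYCP3 from 0 to 5, with counting intervals of the log2 change that begin at 0.59 and 0.23. ASZ1 went from 6 to 0 and DAZL from 3 to 0, with intervals that reach up to 0.12 and 1.63 and so include 0. MAEL, MAGEB2 and MAGEA1 also had no read there with lapatinib. DNA methylation itself was not measured, and a level of RNA says nothing of the mark at any site.

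The change with both drugs was set against the sum of the log2 changes with each drug. In SKBR-3, UHRF1 lay -4.03 from that sum, a value that rests on the 1 read with both drugs, and 7.58% of all genes tested lay 1 or more below their sum in that line. UHRF1 in BT474m1 lay -0.16 from its sum. DNMT3B lay below the sum in both lines, at -0.73 and -0.55. TET1 lay above it, at 0.99 and 0.53, and DNMT1 was at -0.32 in SKBR-3 and 0.50 in BT474m1. DNMT3A, at 0.07 and 0.07, and UHRF2, at 0.15 and 0.02, were near it. These departures were described without a test, and the 3 changes of a line share the DMSO library.

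**Figure D5:**
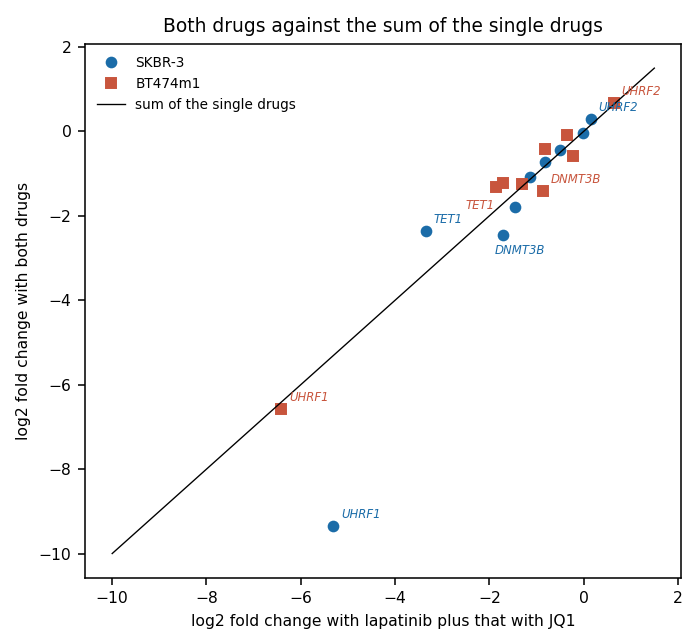
Log2 fold change with both drugs against DMSO (vertical axis) and the sum of the log2 fold changes with lapatinib and with JQ1 (horizontal axis) for the 9 genes in SKBR-3 (circles) and BT474m1 (squares), 1 library per group, with the line where both are equal. UHRF1 in SKBR-3 lies well below the line, DNMT3B a little below it and TET1 above it in both lines, and most other points lie close to it.

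For each of the 9 genes the 3 genes with the most similar profile were sought among 9841 genes that reached 100 units in some library of each line. The measure was the root mean square difference of log2(value + 1), centred within each line, over the 8 libraries. UHRF1, whose own spread on this scale was 3.23, was closest to SPC25 (0.250), KIF4A (0.455) and MYBL2 (0.498). SPC25 codes for a kinetochore subunit and KIF4A for a chromosome motor, and MYBL2 for a transcription factor of cycling cells. DNMT1, with a spread of 0.765, was closest to SHMT1 (0.135), PAQR4 (0.147) and NUP93 (0.166). SHMT1 codes for a serine hydroxymethyltransferase. TET1, with a spread of 1.01, was closest to ITPKB (0.200), PDGFC (0.272) and TRIP6 (0.285). DNMT3B (spread 0.834) was closest to PAK1IP1 (0.125), TOMM40 (0.126) and PPIF (0.130), and DNMT3A (spread 0.467) to GAR1 (0.0818), QTRTD1 (0.0910) and MAPKAPK3 (0.105). The other 4 genes had spreads between 0.190 and 0.280. UHRF2 was closest to ABCC1, CLK3 and ZNF498, TET2 to TRUB2, TOM1L1 and FRK, TET3 to GLRX5, MCRS1 and OXNAD1, and MBD2 to EIF2B5, SAFB and TNPO3. Among so many genes with few points a close profile is a description of these 8 libraries.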

How the data were processed

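Poly(A) RNA was sequenced from 8 cultures, 2 lines by 4 treatments, with groups taken from the labels. The labels name 48 h of treatment, as the study does where it shows RNA of SKBR-3 with lapatinib, whereas its general methods text names a shorter time. The labels also name 2 library kits, of which 1 marks the strand, so that strandedness is uncertain. Each deposited table lists 1 signal value per gene, an RSEM read count that the authors scaled to an upper quartile of 1000. Per the submitters' processing notes the build was hg19 and the tools included Picard 1.88, SAMtools 1.2, RSEM, R 3.2.2 and DESeq2 1.12.3, whereas the methods text names another assembly and quantifier, so that the build is uncertain. Positions and promoter windows are of GRCh38 and locate genes, not reads.

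The software was Python 3.11.15 with scipy 1.17.1 for intervals, pandas 2.3.3 and numpy 2.4.6 for tables and matplotlib 3.10.9 for plots. The value of 1 read was recovered as 1000 divided by the upper quartile in reads, and made 83.8% to 85.2% of the values above 0 whole within 0.02 reads. Of the 72 values of the 9 genes 70 were whole, and the other 2 were of UHRF1 with DMSO. Depth ran from 21420113 to 34112379 reads on genes, and a floor of 3 reads was 1.41 to 2.30 units. A gene needed 10 units in any library to be kept (14429 were, and 6102 were removed). Changes are differences of log2(value + 1), which understates changes of low genes, and 2-fold counted as changed. Intervals are exact Clopper-Pearson intervals at 95% from rounded reads without the pseudocount, and exact conditional intervals for ratios of genes. They cover counting error only, since reads after PCR, counted without molecular identifiers, do not stand for separate molecules. With 1 library per group no test was run within a line. A fit over both lines, line plus treatment on log2(value + 1), used limma 3.58.1 with a mean trend in R 4.3.3 and Benjamini-Hochberg adjustment over 14429 genes. The changes with their counting intervals, the recovery of the value of 1 read and the limma fit were tested on simulated data.

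The 9 genes and the lists were chosen with earlier results of these data known. Named were the 9 genes, list genes changed at least 2-fold the same way in both lines against DMSO or with a defining role, and the 3 nearest profiles of each of the 9. The results of some genes that the rule takes are not reported here. Alternatives were 1.5-fold as the limit, a filter at 100 units or none, a pseudocount of 10, 2 other scalings (median of ratios, equal totals) and, for lists, the mean in place of the median. The fit over both lines was chosen after seeing the data, and was repeated with each scaling and pseudocount and without each library.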

Additional observations from a re-analysis of the deposited data

Results flagged for a closer look

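In 4 of 45 combinations of a gene and a comparison the log2 changes of the 2 lines were opposite in direction with both intervals for counting error excluding 0. Each rests on 1 library per group, the difference between the lines was not tested, and all 4 pairs of changes were under 2-fold. The share of all genes that meet this rule is not given, so that 4 of 45 cannot be read as high or low. DNMT1 with JQ1 against DMSO was at 0.30 in SKBR-3 and -0.61 in BT474m1, a difference of 0.91. TET2 with both drugs against JQ1 was at 0.36 and -0.23, a difference of 0.58. TET3 with both drugs against lapatinib was at -0.24 and 0.21, a difference of -0.44. MBD2 with both drugs against JQ1 was at -0.32 and 0.12, also a difference of -0.44.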

How the results depend on the processing

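The labels carry no replicate numbers, so that the pairing is by line, and the limma fit with the line as block is given above. Within a line no library could be left out. Without each of the 8 libraries in turn, that fit lowered 0 to 2 of the 9 with lapatinib, 0 with JQ1, 1 to 5 with both drugs, 0 to 1 with both against lapatinib (UHRF1 without the BT474m1 library with both drugs) and 0 to 2 with both against JQ1, and raised 0, where the lone library of a treatment is assumed to vary like the others. Its counts moved under no pseudocount or scaling by over 1.5 times, and TET1 with both drugs was lost under equal totals. Of the recounts of the 9 genes within lines under the alternatives, 117 stayed within 1.5 times the count given and 15 did not, and none reversed. With 1.5-fold as the limit, JQ1 lowered 3 genes in SKBR-3, both drugs against lapatinib lowered 4 in SKBR-3 and 5 in BT474m1, and both drugs against JQ1 raised 1 in each line. At that limit lapatinib and both drugs each raised 1 gene in BT474m1 against DMSO, and between the lines with DMSO 4 genes were higher and 1 lower in BT474m1. The shares of all genes at 1.5-fold are not given, so that these counts show only how the calls of the 9 move with the limit. With a pseudocount of 10, or with scaling by the median of ratios, both drugs against lapatinib lowered 1 gene in BT474m1, since DNMT3A then fell just short of 2-fold. Between the lines with DMSO, 1 gene was higher and 1 lower in BT474m1 under the median of ratios, and the same numbers under equal totals. No filter and a filter at 100 changed no count of the 9. The median of all genes shifted by -0.15 to 0.11 on the log2 scale under the median of ratios and by -0.14 to 0.04 under equal totals. Single genes shifted by other amounts. Of the log2 changes of the 9, 268 stayed within the counting interval and 29 left it, 18 of these under the median of ratios, 5 under equal totals and 6 with a pseudocount of 10. The last were UHRF1 with both drugs in 5 comparisons and TET1 with JQ1 in SKBR-3 at -2.38. Of the list medians 366 moved by less than 0.1 on the log2 scale and 118 by more, of which 57 were means in place of medians. Besides the sign changes given above, TET2 with both drugs in SKBR-3 moved to 0.10 and MBD2 with both drugs against lapatinib in SKBR-3 to 0.12 under the median of ratios, TET3 with both drugs against JQ1 in BT474m1 to 0.01 under equal totals, and TET3 between the lines to -0.05 under the median of ratios. With 1 read, the change of UHRF1 in SKBR-3 with both drugs is limited by depth.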
